A study of Homo sapiens with 8 samples.

Results

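The long non-coding RNA HOTAIR was overexpressed in MCF10A, a non-tumorigenic human breast epithelial line, and the transcriptome was compared with that of the same line carrying the empty vector. The members were the 4 MCF10A libraries of the 8 in the study, taken by their labels: 2 from cells stably transduced with the lentiviral vector pCDH-HOTAIR, which carries the full-length spliced transcript, and 2 from cells transduced with pCDH-empty. Both groups were selected with puromycin, grown in the same medium with horse serum, epidermal growth factor, hydrocortisone, insulin and cholera toxin, and harvested at subconfluence. The other 4 libraries came from DCIS.COM, a line that models ductal carcinoma in situ, with the same vectors. No label says that the 2 libraries of a group came from separate transductions or cultures, so the p-values measure only the spread between these libraries, which may be technical.

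HOTAIR is transcribed antisense from the HOXC cluster and is known as a scaffold that binds the Polycomb complex PRC2, which methylates histone H3 on lysine 27, and the demethylase LSD1. In breast cells it has been studied mainly for epithelial to mesenchymal transition, invasion and metastasis. The aim of the comparison was to find the genes that respond to HOTAIR in cells that are not transformed.

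The labels held for the transgene. HOTAIR stood at 1.44 and 1.503 CPM (reads of a gene scaled to the total of the library) in the 2 pCDH-empty libraries and at 238 and 242 CPM in the 2 pCDH-HOTAIR libraries, so that the groups lay far apart and the libraries of a group close together. The log2 fold change was 7.28 ± 0.12 (SE; limma adjusted p = 1.6e-07). The endogenous gene lies on the minus strand at chr12:54356092-54368740 (GRCh37) and overlaps HOXC11 in the annotation. HOXC11 gave a log2 fold change of 0.08.

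Depth lay between 19306864 and 31598168 assigned reads per MCF10A library and was lower in both pCDH-HOTAIR libraries (19306864 and 19675113) than in the pCDH-empty libraries (31598168 and 27005146). The signal recognition particle RNAs RN7SL1 and RN7SL2 together took 14.95% and 13.7% of the reads with pCDH-empty and 12.5% and 11.1% with pCDH-HOTAIR. The part of these differences in the results below was not tested, apart from thinning every library to 19306864 reads, after which HOTAIR, CA9 and FAT2 were called and NDRG1 was not (adjusted p = 0.0816). Of the other libraries, DCIS.COM pCDH-empty 1 stood apart. The Euclidean distance between it and its replicate was 46.4 on the log2 scale, beside 27.0 between the pCDH-empty and 29.9 between the pCDH-HOTAIR libraries of MCF10A. To the DCIS.COM pCDH-HOTAIR libraries its distances were 51.3 and 50.2, and those of its replicate 30.1 and 28.7. DCIS.COM pCDH-empty 1 enters the fold changes of MCF10A in no way but enters the estimate of the spread. Adjusted p-values are therefore given from the fit on all 8 libraries, from a fit on 7 libraries without DCIS.COM pCDH-empty 1, or from both. With 8 libraries only 3 genes had an adjusted p under 0.05 at any fold, HOTAIR, CA9 and NDRG1. A gene given with the value from 7 libraries alone therefore did not pass with 8. In the fit on 7 libraries the remaining DCIS.COM pCDH-empty library is assumed to vary like the others.

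The basal keratin KRT5 of breast epithelium was present in all 4 libraries, at 4218 and 4501 CPM under pCDH-empty and 4063 and 4319 CPM under pCDH-HOTAIR. All 10 listed basal markers were in the table and their summed level ranged from 15057 to 15767 CPM with pCDH-empty and from 14903 to 15752 CPM with pCDH-HOTAIR. A gene can be in the table through DCIS.COM alone, so this does not show that each of them was present in MCF10A. NGFR had a log2 fold change of 0, which a gene without reads in MCF10A would give. Of 10 fibroblast markers, only FAP and FBLN1 were in the table, summing to 131 and 150.03 CPM with pCDH-empty and to 156 and 174 CPM with pCDH-HOTAIR, while PDGFRA, PDGFRB, DCN and LUM were not in it. Of 8 endothelial markers only PECAM1 was in the table, at a sum of 2.69 and 2.41 CPM against 1.91 and 1.70 CPM, and of 10 leukocyte markers CD14, CD68 and LCP1, at 156 and 152 CPM against 158 and 153 CPM. PTPRC, CDH5 and VWF, which define leukocytes and endothelium, were not in it.

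Over 13771 genes, 3 rose by at least 1.5-fold at an adjusted p under 0.05 (called genes in the limma fit on 8 libraries, 0.0218% of those tested) and 0 fell (0%). They were HOTAIR, the carbonic anhydrase CA9 and the stress-response gene NDRG1. At an unadjusted p under 0.05, 607 genes were higher (4.41%) and 396 lower (2.88%). Leaving out any 1 of the 4 MCF10A libraries left HOTAIR as the 1 call, with CA9 at adjusted p-values of 0.0561 to 0.179 and NDRG1 at 0.253 to 0.406. NDRG1 also missed the threshold with the scalings tried, median centring (0.0528) and quantile normalization (0.0565), and without the mean-variance trend (0.105), where CA9 passed (0.0378). In a fit on the 4 MCF10A libraries alone both missed it (0.124 for CA9 and 0.116 for NDRG1). Without DCIS.COM pCDH-empty 1, 51 genes were called (0.37%), 40 higher (0.29%) and 11 lower with HOTAIR (0.0799%). All 51 had an unadjusted p under 0.05 in the fit on 8 libraries, and in none did the libraries of the 2 groups overlap. Both fits use the same 4 MCF10A libraries, so these 2 traits largely follow from how the 51 were picked and are no further support. Over all genes, both pCDH-HOTAIR libraries lay above both pCDH-empty libraries in 22.5% and below them in 24.8%. At any fold, 232 genes passed an adjusted p of 0.05 without that library (1.68%), 131 higher (0.951%) and 101 lower (0.733%). Other settings gave 16 calls with a correction for GC content (12 higher and 4 lower), 5 with voom on the recovered reads and 53 with array weights (40 higher and 13 lower). With 2 libraries against 2 an exact permutation test cannot go below a two-sided p of 0.333, so the limma fits are the only tests of single genes.

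**Figure D1:**
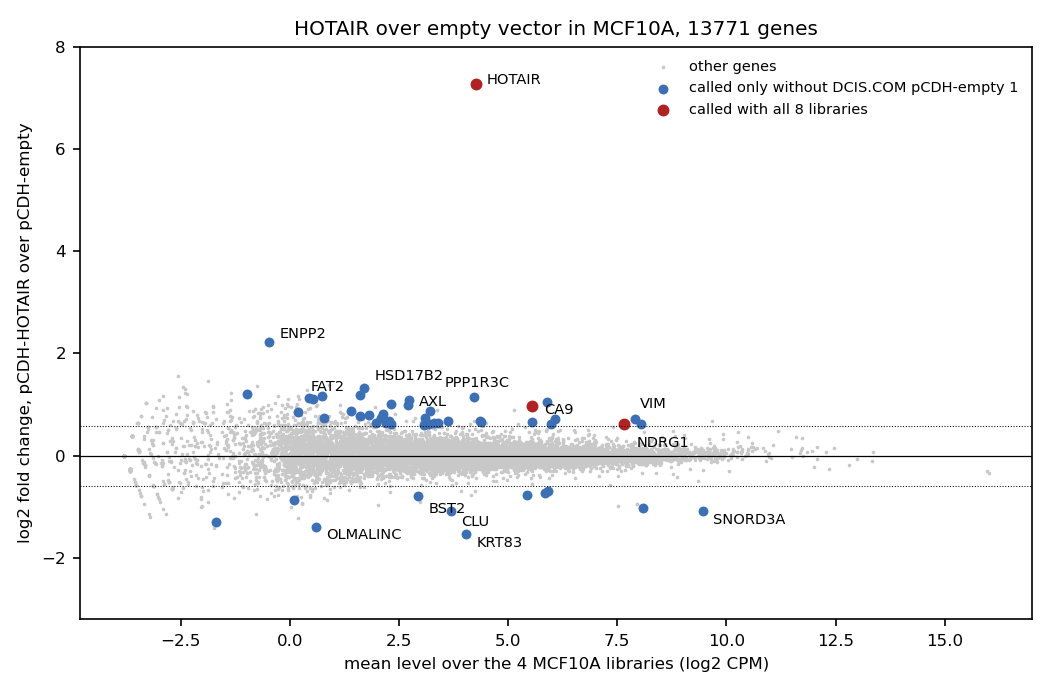
Log2 fold change (pCDH-HOTAIR over pCDH-empty) of each of 13771 genes against its mean level over the 4 MCF10A libraries in log2 CPM; dotted lines mark a fold of 1.5. The 3 genes called with all 8 libraries are red and those called only without DCIS.COM pCDH-empty 1 are blue: HOTAIR stands alone near 7.28, ENPP2 is the next highest called gene at 2.22, and KRT83 the lowest at -1.54.

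Genes of the hypoxia response were higher with HOTAIR. Hypoxia-inducible factors (HIF1A and EPAS1 with their partner ARNT) are degraded in the presence of oxygen after hydroxylation by EGLN enzymes and recognition by VHL. When stable they bind core letters such as ACGTG near genes for glycolysis, pH control and vessel growth. Of 32 HIF targets outside glycolysis, all in the table, 2 were called and rose (CA9 and NDRG1), beside 0.0218% of all genes. At an unadjusted p under 0.05, 15 were higher and 0 lower (all genes: 4.41% and 2.88%). In 30 both pCDH-HOTAIR libraries lay above both pCDH-empty libraries, beside 22.5% of all genes. The median log2 fold change of the list was 0.25, beside -0.0055 over all genes. Of 23 HIF targets of glycolysis 22 were in the table: 8 were higher and 0 lower at an unadjusted p under 0.05, 21 had both pCDH-HOTAIR libraries above, and the median was 0.16. Without DCIS.COM pCDH-empty 1, 15 genes of the first and 7 of the second list were higher at an adjusted p under 0.05, beside 0.951% of all genes.

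CA9, a membrane enzyme that acidifies the space outside the cell, rose to 66.8 and 64.00 CPM from 32.3 and 34.5 CPM, 1.96-fold (log2 fold change 0.97 ± 0.069; limma adjusted p = 0.00518 with 8 and 0.000261 with 7 libraries). NDRG1, which responds to hypoxia and other stress, stood at 160.4 and 164 CPM with pCDH-empty and rose to 251 and 248 CPM (log2 fold change 0.62 ± 0.061; adjusted p = 0.0412 and 0.000539). In both genes the 2 groups did not overlap and replicates lay within a few CPM of each other. ANGPTL4, a secreted inhibitor of lipoprotein lipase, was at 50.5 and 55.1 CPM without and 82.5 and 90.2 CPM with HOTAIR (limma adjusted p = 0.0571 with 8 and 0.00252 with 7 libraries). PFKFB3, which makes the activator of phosphofructokinase, was at 53.2 and 48.5 CPM against 80.2 and 76.4 CPM (log2 fold change 0.62 ± 0.077; adjusted p = 0.0899 and 0.00374). The vessel growth factor VEGFA was at 238 and 237 CPM against 312 and 339 CPM, a log2 difference of 0.45 ± 0.066 under the fold threshold (adjusted p = 0.155 and 0.00632). These 3 did not pass with 8 libraries, and ANGPTL4 and PFKFB3 passed both thresholds with 7.

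The promoters of CA9 and ANGPTL4 are shown because each holds the HIF core within 250 bases before to 50 bases after the start of the gene. They are RefSeq sequences (GRCh38.p14, plus strand; chr9:35673678-35673977 for CA9 and chr19:8363905-8364204 for ANGPTL4), 5′ to 3′, with the match to ACGTG on either strand in capitals.
CA9: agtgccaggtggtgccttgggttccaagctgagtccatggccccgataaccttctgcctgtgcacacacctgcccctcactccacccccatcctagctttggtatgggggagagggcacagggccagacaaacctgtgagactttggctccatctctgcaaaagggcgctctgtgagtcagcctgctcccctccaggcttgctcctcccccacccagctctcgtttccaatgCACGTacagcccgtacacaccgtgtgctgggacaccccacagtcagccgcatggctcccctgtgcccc
ANGPTL4: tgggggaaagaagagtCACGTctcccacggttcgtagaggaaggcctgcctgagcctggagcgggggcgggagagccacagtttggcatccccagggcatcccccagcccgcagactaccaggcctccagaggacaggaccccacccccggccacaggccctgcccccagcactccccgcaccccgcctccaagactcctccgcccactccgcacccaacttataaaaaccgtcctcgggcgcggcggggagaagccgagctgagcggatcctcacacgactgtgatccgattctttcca
The match begins 18 bases before the start of CA9 and 234 bases before that of ANGPTL4. Promoters were found for 46 of the 54 HIF targets, and 24 of them held ACGTG on either strand (52.2%), beside 2768 of 10492 promoters of all genes tested (26.4%). The median log2 fold change was 0.18 in the 24 with and 0.24 in the 22 without the letters, so the members with a match in this window were not the higher ones. Only ACGTG was searched, so other forms of the core and sites outside this window count as no match. A match is a description of the letters and not of binding.

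Within the HIF system itself, the sensor EGLN3, which is a target as well as a regulator, was at 35.4 and 38.6 CPM with pCDH-empty and 60.04 and 56.5 CPM with pCDH-HOTAIR (log2 fold change 0.66 ± 0.14; limma adjusted p = 0.247 with 8 and 0.00632 with 7 libraries). EGLN3 overlaps antisense and other genes in the annotation, and how reads of overlapping genes were assigned is not given in the sources used here. HIF1A and EPAS1 differed less, with log2 fold changes of 0.15 ± 0.067 and 0.19 ± 0.081 (adjusted p = 0.692 and 0.682). In glycolysis, PFKFB4 (log2 fold change 0.48), ALDOC (0.49), ENO2 (0.62), HK2 (0.27) and PGK1 (0.18) followed PFKFB3 in the order of their p-values. ENO2, the neuronal enolase, was the other gene of glycolysis past both thresholds with 7 libraries (adjusted p = 0.0422). Of the remaining targets, CA12, a further carbonic anhydrase, was at 83.4 and 75.01 CPM against 114 and 105 CPM, and ADM, the vasodilator adrenomedullin, at 33.5 and 35.1 CPM against 53.7 and 47.6 CPM. VLDLR, a lipoprotein receptor, was at 6.64 and 6.88 CPM against 10.6 and 10.1 CPM and passed both thresholds with 7 libraries (adjusted p = 0.0438).

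Glycogen genes were mixed. Glycogen is built by glycogen synthase, which regulatory subunits of protein phosphatase 1 bring to the particle and switch on. Of 23 genes of glycogen metabolism 21 were in the table. At an unadjusted p under 0.05, 4 were higher and 1 lower (all genes: 4.41% and 2.88%), and the median was 0.11. PPP1R3C, 1 of those subunits (chr10:93388199-93392828, GRCh37, minus strand), was at 12.96 and 11.95 CPM with pCDH-empty and 26.5 and 28.9 CPM with pCDH-HOTAIR, 2.22-fold apart (limma adjusted p = 0.155 with 8 and 0.0189 with 7 libraries). The related subunit PPP1R3B and the synthase GYS1 were higher by 0.26 ± 0.064 and 0.27 ± 0.09 on the log2 scale, under the fold threshold (adjusted p with 7 libraries 0.0359 and 0.0309). EPM2A, the glycogen phosphatase laforin, was the 1 lower gene, at 5.29 and 5.45 CPM against 3.304 and 4.103 CPM (adjusted p = 0.392 and 0.095).

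**Figure D2:**
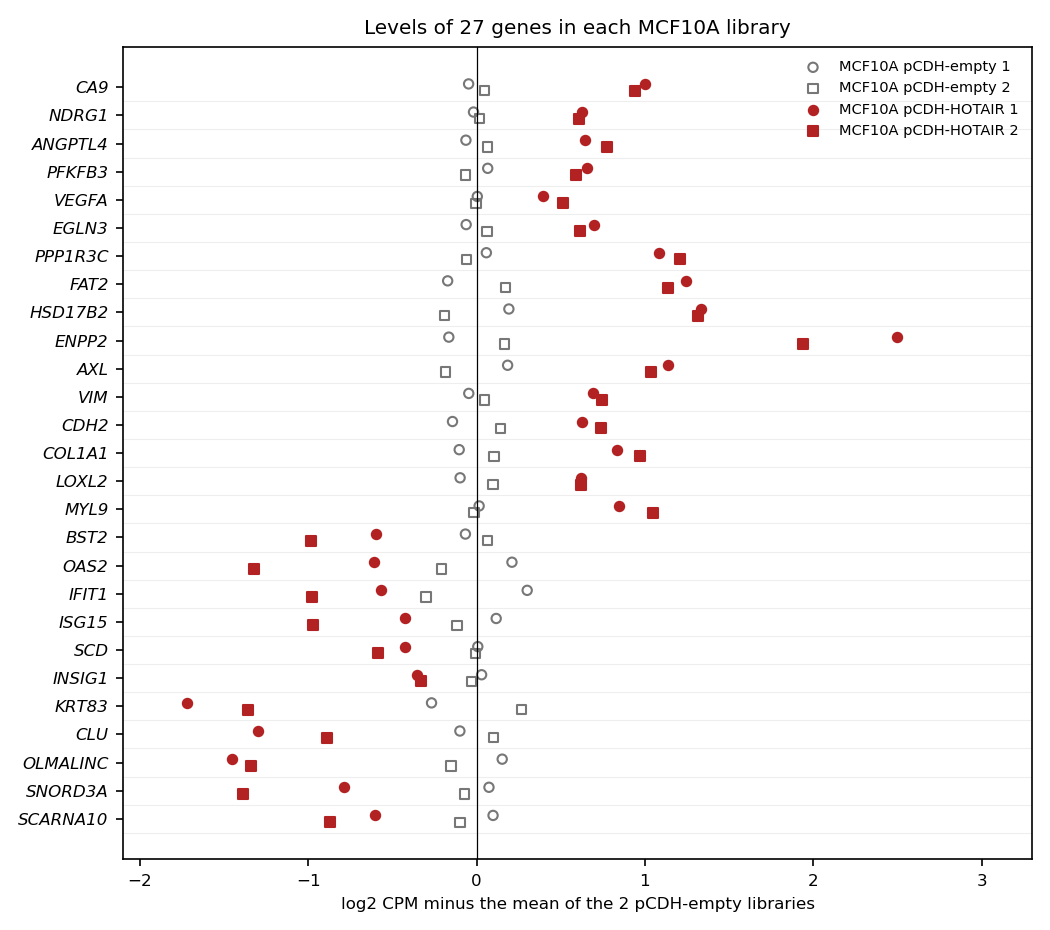
Level of 27 genes in each of the 4 MCF10A libraries, as log2 CPM minus the mean of the 2 pCDH-empty libraries (open grey symbols: pCDH-empty 1 and 2; filled red symbols: pCDH-HOTAIR 1 and 2). In each of the 27 genes the libraries of the 2 groups do not overlap. Many of them were picked by p-value, for groups that lie apart or after their values were seen, so this largely follows from the choice. Over all genes, both pCDH-HOTAIR libraries lay above in 22.5% and below in 24.8%. In the interferon genes BST2, OAS2, IFIT1 and ISG15 and in SNORD3A and SCARNA10 pCDH-HOTAIR 2 lies lower than pCDH-HOTAIR 1.

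Interferon-stimulated genes were lower with HOTAIR as a group. Type I and III interferons signal through JAK1, TYK2, STAT2 and IRF9 to a response element in antiviral genes, many of which are also transcribed at a low level without infection. Of 54 listed interferon-stimulated genes 48 were in the table. At an unadjusted p under 0.05, 23 were lower and 1, GBP1, was higher, beside 2.88% and 4.41% of all genes. In 39 both pCDH-HOTAIR libraries lay below both pCDH-empty libraries and in 3 above, beside 24.8% and 22.5% of all genes. The median log2 fold change was -0.25 and ranged from -0.34 to -0.18 when 1 MCF10A library was left out. Called genes numbered 0 with 8 libraries and 1, BST2, with 7 (called lower among all genes: 0% and 0.0799%). With 7 libraries 6 were lower at an adjusted p under 0.05 at any fold, beside 0.733% of all genes.

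BST2 (tetherin, chr19:17513748-17516439, GRCh37, minus strand), which holds budding viruses at the cell surface, was at 9.59 and 10.5 CPM with pCDH-empty and 6.61 and 5.05 CPM with pCDH-HOTAIR. Its log2 fold change was -0.79 ± 0.16, 1.73-fold lower (limma adjusted p = 0.247 with 8 and 0.022 with 7 libraries). OAS2 and OAS3, which make the activator of the antiviral nuclease RNase L, were at 6.51 and 4.85 CPM against 3.67 and 2.202 CPM and at 71.4 and 70.5 CPM against 56.2 and 48.6 CPM. Of these, OAS3 passed the adjusted threshold with 7 libraries at a log2 difference of -0.44 ± 0.11 (adjusted p = 0.0261), whereas OAS2, with a wider spread, did not (-0.97 ± 0.26; adjusted p = 0.101). IFIT1 and IFIT3, which bind viral RNA and associate with each other, were at 28.5 and 18.8 CPM against 15.6 and 11.7 CPM and 33.6 and 29.2 CPM against 24.1 and 20.3 CPM. The ubiquitin-like modifier ISG15 was at 20.8 and 17.7 CPM against 14.3 and 9.76 CPM. In all of these genes the groups did not overlap, but for IFIT1 and OAS2 the libraries of each group lay farther apart than the nearest libraries of the 2 groups. The RNA sensor IFIH1 was closer between replicates, at 35.8 and 32.4 CPM against 26.6 and 23.7 CPM (log2 fold change -0.44 ± 0.10; adjusted p = 0.311 and 0.0401). HERC6 and PLSCR1 were lower by the same test with 7 libraries (adjusted p = 0.042 and 0.0398).

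The promoters of BST2, IFIT3 and ISG15 are shown because they carry the core of the interferon-stimulated response element, searched as GAAA, any 2 letters and GAAA on both strands over the same window. The RefSeq sequences (GRCh38.p14; chr19:17405581-17405880, minus strand, for BST2; chr10:89327747-89328046, plus strand, for IFIT3; chr1:1013247-1013546, plus strand, for ISG15) run 5′ to 3′ with the matches in capitals.
BST2: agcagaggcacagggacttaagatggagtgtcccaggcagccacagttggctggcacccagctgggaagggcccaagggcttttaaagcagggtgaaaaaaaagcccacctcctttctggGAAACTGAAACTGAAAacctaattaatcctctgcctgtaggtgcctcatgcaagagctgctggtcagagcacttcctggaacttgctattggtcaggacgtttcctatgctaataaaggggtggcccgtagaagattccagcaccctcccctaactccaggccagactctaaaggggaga
IFIT3: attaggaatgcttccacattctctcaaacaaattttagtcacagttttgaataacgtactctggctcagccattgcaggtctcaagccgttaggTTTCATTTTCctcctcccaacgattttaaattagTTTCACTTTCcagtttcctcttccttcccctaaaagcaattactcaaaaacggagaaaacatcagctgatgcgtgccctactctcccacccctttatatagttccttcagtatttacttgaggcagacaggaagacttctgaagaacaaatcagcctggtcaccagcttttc
ISG15: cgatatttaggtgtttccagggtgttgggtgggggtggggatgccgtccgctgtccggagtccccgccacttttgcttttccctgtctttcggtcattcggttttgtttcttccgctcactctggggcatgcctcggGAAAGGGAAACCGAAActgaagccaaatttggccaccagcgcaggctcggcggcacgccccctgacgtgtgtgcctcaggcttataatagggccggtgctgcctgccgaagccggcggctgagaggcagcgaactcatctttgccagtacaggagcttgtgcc
BST2 and ISG15 each hold 2 overlapping matches in the sense direction, which begin 130 and 124 bases before the start of BST2 and 113 and 107 bases before that of ISG15. IFIT3 holds 2 separate matches, on the opposite strand, beginning 156 and 122 bases before its start. Promoters were found for 38 of the 48 genes of the list in the table, and 28 held the letters (73.7%), beside 296 of 10492 promoters of all genes tested (2.82%). The 28 genes with the letters had a median log2 fold change of -0.29 and the 10 without one of -0.15.

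Upstream of these genes little differed. Of 26 interferon ligands, receptors and signalling genes 20 were in the table. At an unadjusted p under 0.05, 1 was lower and 0 higher (all genes: 2.88% and 4.41%), and the median was -0.05. STAT2, with -0.10 ± 0.10, and IRF9, with -0.25 ± 0.12, did not pass the limma test with 8 or 7 libraries. Genes of antigen presentation on MHC class I, which partly share this control, had 5 of 19 members lower and 0 higher by that measure. In both libraries 10 lay below and 1 above (all genes: 24.8% and 22.5%), and the median was -0.12. The peptide transporter TAP1 was at 55.2 and 53.6 CPM against 43.4 and 39.98 CPM, a log2 fold change of -0.38 ± 0.12 (limma adjusted p = 0.476 with 8 and 0.0261 with 7 libraries). It was the 1 member past the adjusted threshold with 7 libraries, beside 0.733% of all genes lower by that measure. The other 4 were PSME2 (-0.25), TAP2 (-0.16), PSMB8 (-0.17) and HLA-B (-0.15). HLA genes share sequence with one another, and TAP1 and PSMB8 overlap PSMB9 or its neighbours, so their counts are uncertain.

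Genes of sterol and fatty acid synthesis were lower as a group by a small amount. They are controlled by the membrane-bound factors SREBF1 and SREBF2, which INSIG1 retains in the endoplasmic reticulum when sterol is plentiful. Of 34 genes 33 were in the table, with 14 lower and 0 higher at an unadjusted p under 0.05 (all genes: 2.88% and 4.41%). In both libraries 26 lay below and 1 above, beside 24.8% and 22.5% of all genes. The median log2 fold change was -0.21 (-0.23 to -0.18 without 1 MCF10A library). With 8 libraries 0 were called. With 7 libraries 11 were lower at an adjusted p under 0.05, all by less than 1.5-fold, beside 0.733% of all genes at any fold. SCD, the desaturase that makes oleic acid (chr10:102106990-102124583, GRCh37, plus strand), was at 784 and 776 CPM with pCDH-empty and 582 and 519 CPM with pCDH-HOTAIR. Its log2 fold change of -0.50 ± 0.075 was the lowest of the list (limma adjusted p = 0.155 with 8 and 0.00632 with 7 libraries). INSIG1 was at 41.2 and 39.6 CPM against 31.5 and 32.1 CPM, with replicates closer to each other than to the other group (adjusted p with 7 libraries 0.0174). The squalene synthase FDFT1 (-0.27 ± 0.061) and the cyclase LSS (-0.22 ± 0.065) were lower too (adjusted p with 7 libraries 0.0168 and 0.0331). Both regulators lay on the same side: SREBF1 at 163 and 153 CPM against 134 and 123 CPM and SREBF2 at 77.5 and 78.4 CPM against 68.97 and 65.6 CPM (adjusted p with 7 libraries 0.0346 and 0.0495). The libraries of the 2 groups overlapped for FASN, at 166 and 186 CPM against 168 and 132 CPM.

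**Figure D3:**
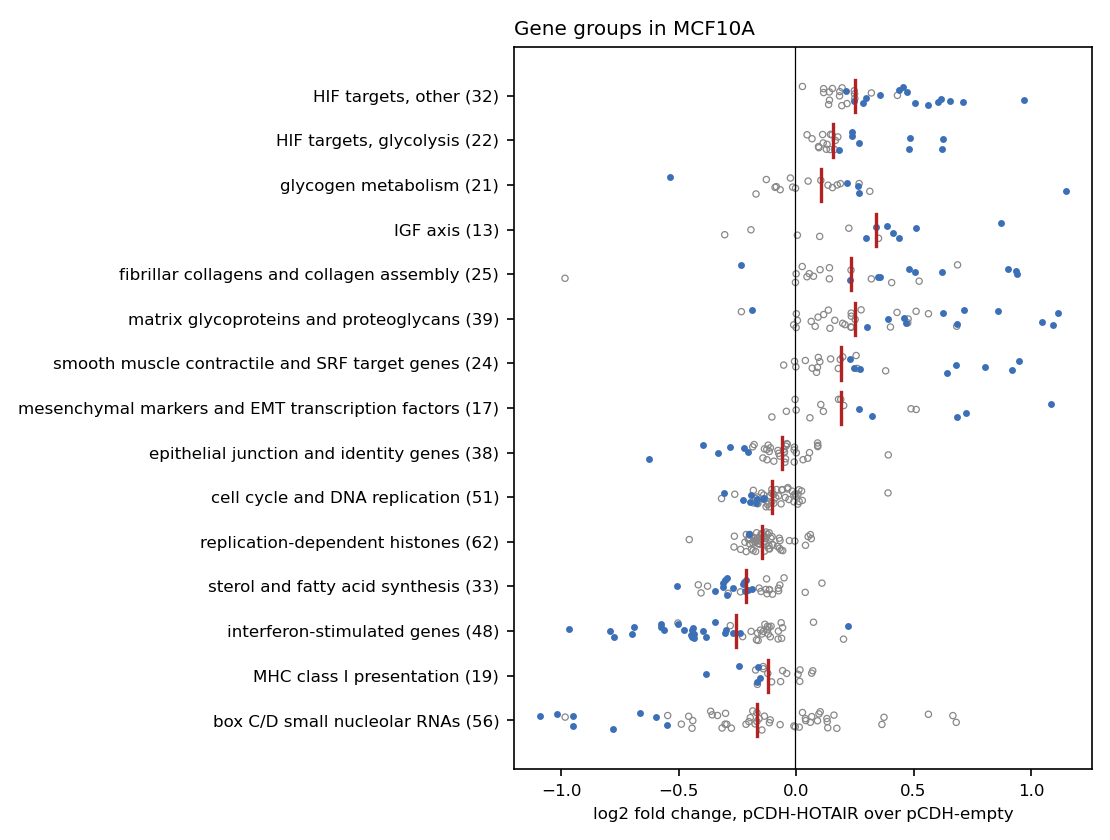
Log2 fold change (pCDH-HOTAIR over pCDH-empty) of each member of 15 gene groups, with the number in the table in parentheses; blue points have an unadjusted limma p under 0.05, open points do not, and red bars are the median of a group. Medians lie between 0.11 and 0.34 in the hypoxia, glycogen, insulin-like growth factor, matrix, contractile and mesenchymal groups and between -0.25 and -0.06 in the epithelial, cell cycle, histone, sterol, interferon, MHC class I and small nucleolar RNA groups. The vertical line marks the median over all genes, -0.0055.

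Among small RNAs, those of the U3 family were lower with HOTAIR. U3 is a box C/D small nucleolar RNA needed for cleavage of the ribosomal RNA precursor and is encoded by near-identical copies named SNORD3. SNORD3A (chr17:19091329-19092027, GRCh37, plus strand) was at 1081 and 976 CPM with pCDH-empty and 594 and 392 CPM with pCDH-HOTAIR, 2.13-fold lower. SNORD3C was at 402 and 369 CPM against 235 and 154 CPM. Both missed the adjusted threshold with 8 libraries and passed it with 7 (limma adjusted p = 0.155 and 0.0218 for SNORD3A, 0.171 and 0.0261 for SNORD3C), and pCDH-HOTAIR 2 was lower than pCDH-HOTAIR 1 in both. The copies cannot be read as separate genes, since SNORD3A and SNORD3C share an identical run of 473 bases and reads can be split among them. SNORD3B-1 and SNORD3B-2 had log2 fold changes of -0.95 ± 0.28 and -0.95 ± 0.30. SNORD17, another C/D RNA, which lies within SNX5 in the annotation, was at 59.3 and 53.9 CPM against 37.6 and 28.8 CPM (adjusted p = 0.276 and 0.0398), while SNX5 itself gave -0.05.

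Of 56 box C/D RNAs in the table, 8 were lower and 0 higher at an unadjusted p under 0.05, beside 2.88% and 4.41% of all genes. In both libraries 18 lay below and 6 above (all genes: 24.8% and 22.5%). The median was -0.17 (-0.24 to -0.06 when 1 MCF10A library was left out). Of 47 box H/ACA RNAs, which guide pseudouridylation, 3 were lower and 0 higher, and 11 lay below in both libraries, a share close to the 24.8% of all genes, with SNORA57 at 11.2 and 10.9 CPM against 8.05 and 7.31 CPM. Of 12 small Cajal body RNAs, which guide modification of spliceosomal RNAs, 4 were lower and 1 higher. SCARNA10 was at 78.9 and 68.9 CPM with pCDH-empty and 48.6 and 40.3 CPM with pCDH-HOTAIR (log2 fold change -0.74 ± 0.12; limma adjusted p = 0.155 and 0.0191), SCARNA5 was at 12.9 and 8.91 CPM against 6.56 and 4.904 CPM, and SCARNA7 was the higher one at 51.5 and 43.4 CPM against 57.8 and 57.7 CPM. The members thus did not share a direction. Of 15 spliceosomal U RNAs 0 passed an unadjusted p of 0.05 in either direction. Of the 5 signal recognition particle and vault RNAs 0 passed either, and 3 lay below in both libraries: RN7SL1 was at 72027 and 70123 CPM against 62081 and 54325 CPM. The share of RN7SL reads and the depth given above moved with the groups in the same direction, and their part in the levels of these short RNAs was not tested.

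Genes of the extracellular matrix and its enzymes were higher. Of 35 collagens and collagen-assembly genes 25 were in the table, with 9 higher and 1 lower at an unadjusted p under 0.05 and a median of 0.23, and of 50 matrix glycoproteins and proteoglycans 39 were, with 11 higher and 1 lower and a median of 0.25 (all genes: 4.41% higher and 2.88% lower). COL1A1 and COL1A2, the chains of type I collagen, were at 6.96 and 8.04 CPM against 13.4 and 14.7 CPM and at 1.51 and 2.18 CPM against 3.72 and 3.35 CPM. The groups did not overlap, but neither passed with 8 or 7 libraries (limma adjusted p = 0.0817 and 0.149 with 7). LOXL2 and LOX, oxidases that cross-link collagen, were at 198 and 227 CPM against 326 and 327 CPM and 91.03 and 101 CPM against 131 and 142 CPM (adjusted p with 7 libraries 0.00457 and 0.0089), and the hydroxylase PLOD1 at 158 and 161 CPM against 201 and 206 CPM (0.00457). The proline hydroxylase P3H2 was the 1 lower member, with a log2 fold change of -0.24 ± 0.069. The median of the glycoproteins ranged from 0.14 to 0.42 when 1 MCF10A library was left out. The proteoglycan VCAN was at 31.5 and 53.03 CPM against 80.02 and 89.3 CPM, with the pCDH-empty libraries far apart (log2 fold change 1.05, and 0.67 to 1.42 when 1 MCF10A library was left out), and SRPX at 8.76 and 10.6 CPM against 15.2 and 15.9 CPM; both passed with 7 libraries (adjusted p = 0.0438 and 0.0291). TGFBI, an adhesion protein named for its induction by TGF-beta, was at 979.8 and 1126 CPM against 1346 and 1548 CPM (adjusted p with 7 libraries 0.0316).

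Of 36 matrix proteases and inhibitors 27 were in the table, with 8 higher and 1 lower at an unadjusted p under 0.05, beside 4.41% and 2.88% of all genes, and a median of 0.21. The plasminogen activator PLAT was at 42.05 and 41.6 CPM against 58.96 and 58.1 CPM and the metalloprotease ADAM12 at 16.5 and 17.2 CPM against 23.5 and 23.6 CPM, each about 0.48 higher on the log2 scale, with replicates nearly equal (limma adjusted p with 7 libraries 0.00229 and 0.0134). MRC2, a receptor that takes up collagen fragments, was at 15.1 and 18.2 CPM against 25.2 and 27.3 CPM and passed both thresholds with 7 libraries (0.0261). MMP7 was the lower one, at 1.86 and 2.48 CPM against 1.497 and 1.35 CPM (-0.57 ± 0.16). The fibronectin receptor chain ITGA5 was at 359 and 379 CPM against 502 and 523 CPM (adjusted p = 0.00315 with 7 libraries). Of 13 integrins in the table, 3 were higher and 0 lower at an unadjusted p under 0.05 with 8 libraries. The list was mixed, with 5 above and 4 below in both libraries (all genes: 22.5% and 24.8%) and a median of 0.03. With 7 libraries 2 were higher and 1, ITGB8, was lower at an adjusted p under 0.05 (log2 fold change of ITGB8 -0.25, adjusted p = 0.0359), beside 0.951% and 0.733% of all genes. LAMA4 led the 4 of 25 basement membrane genes that were higher, at 35.8 and 40.2 CPM against 56.4 and 48.1 CPM.

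Contractile genes of smooth muscle and myoepithelium, which are targets of serum response factor (SRF), showed 8 higher and 0 lower of 24 in the table at an unadjusted p under 0.05, beside 4.41% and 2.88% of all genes. In both libraries 18 lay above and 1 below (all genes: 22.5% and 24.8%), and the median was 0.19. The myosin light chain kinase MYLK was at 7.76 and 7.93 CPM with pCDH-empty and 12.1 and 12.5 CPM with pCDH-HOTAIR (log2 fold change 0.64 ± 0.12; limma adjusted p = 0.215 with 8 and 0.00632 with 7 libraries), and was the 1 member past both thresholds with 7. Its substrate MYL9 was at 2.73 and 2.67 CPM against 4.904 and 5.65 CPM, TAGLN at 12.4 and 17.5 CPM against 21.01 and 26.5 CPM and the tropomyosin TPM2 at 213 and 218 CPM against 254 and 267 CPM. SRF itself was at 27.6 and 27.3 CPM against 28.9 and 33.9 CPM (adjusted p = 0.78). Of 17 mesenchymal markers in the table, 5 were higher and 0 lower at an unadjusted p under 0.05, and VIM (vimentin; 0.72 ± 0.12), CDH2 (N-cadherin; 0.68 ± 0.13) and the receptor AXL (1.09 ± 0.21) passed both thresholds with 7 libraries (adjusted p = 0.000402, 0.0278 and 0.0111). These 3 did not pass with 8 libraries. SNAI2, a repressor of epithelial genes, was at 78.7 and 92.8 CPM against 96.7 and 118 CPM and passed with neither (adjusted p with 7 libraries 0.186).

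Epithelial genes were lower by less. Of 40 epithelial junction and identity genes 38 were in the table, with 6 lower and 0 higher at an unadjusted p under 0.05 (all genes: 2.88% and 4.41%). In both libraries 20 lay below and 3 above (all genes: 24.8% and 22.5%), and the median was -0.06. The tight junction genes CLDN1 and TJP3 were at 86.9 and 90.4 CPM against 67.2 and 73.5 CPM and 21.6 and 19.8 CPM against 16.7 and 14.8 CPM, and the adhesion molecule EPCAM at 65.6 and 69.8 CPM against 53.7 and 57.6 CPM. CLDN1 and EPCAM passed the adjusted threshold at a smaller fold with 7 libraries (limma adjusted p = 0.042 and 0.0316), and TJP3 did not (0.0506). Keratins split. The hair keratin KRT83 (chr12:52708085-52715182, GRCh37, minus strand) had the lowest log2 fold change of the 13771 genes, at 23.2 and 33.6 CPM against 8.41 and 10.9 CPM, 2.90-fold lower (adjusted p = 0.122 and 0.0142). Its paralog KRT81 was on the other side, at 2678 and 2793 CPM against 3377 and 3678 CPM (0.37 ± 0.11; adjusted p = 0.485 and 0.0174). Hair keratins share much sequence, and KRT81 overlaps KRT86 in the annotation, so the split between them is uncertain. KRT6A and KRT6B, keratins of activated epidermis, were lower (log2 fold changes -0.27 and -0.30), with adjusted p-values of 0.101 and 0.0481 with 7 libraries, while KRT14 and TP63 of the basal layer were at 1247 and 1299 CPM against 1579 and 1704 CPM and 13.9 and 11.8 CPM against 17.6 and 16.6 CPM. The basal markers did not share a direction. Of the 10, 1 was higher (TP63) and 1 lower (KRT15) at an unadjusted p under 0.05 in the limma fit on 8 libraries. KRT14 did not pass in that fit. The log2 fold changes of KRT15 and KRT5 were -0.22 and -0.06, and the median of the 10 was 0.08. Of 9 luminal markers in the table, 0 passed an unadjusted p of 0.05.

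The highest called gene after HOTAIR without DCIS.COM pCDH-empty 1 was ENPP2, which encodes autotaxin, the secreted enzyme that makes the signalling lipid lysophosphatidic acid. It was near the filter at 0.225 and 0.301 CPM with pCDH-empty and at 1.81 and 1.201 CPM with pCDH-HOTAIR, 4.66-fold higher (log2 fold change 2.22 ± 0.36; limma adjusted p = 0.155 with 8 and 0.0116 with 7 libraries). These levels rest on 7 and 8 reads against 35 and 24. Of 9 genes of this pathway in the table, the receptor LPAR1 was higher, at 0.609 and 0.376 CPM against 1.08 and 1.25 CPM, and the receptor LPAR2 lower, at 13.3 and 12.6 CPM against 9.71 and 11.6 CPM, both at an unadjusted p under 0.05 and without passing an adjusted one (0.162 and 0.19 with 7 libraries).

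The insulin-like growth factor axis is set by binding proteins that hold the ligand and by proteases that release it. Of 18 genes 13 were in the table, with 7 higher and 0 lower at an unadjusted p under 0.05, beside 4.41% and 2.88% of all genes, and a median of 0.34. IGFBP3 was at 402 and 388 CPM against 523 and 509 CPM (log2 fold change 0.39 ± 0.059; limma adjusted p with 7 libraries 0.00365), IGFBP6 at 89.3 and 93.1 CPM against 115 and 116 CPM (0.0315) and IGFBP4 at 6.38 and 7.22 CPM against 11.5 and 13.6 CPM (0.0294). Only IGFBP4 of the 3 was beyond the fold threshold. STC2, which inhibits the protease that releases IGF from IGFBP4, was at 43.2 and 44.4 CPM against 60.7 and 58.1 CPM and the adaptor IRS2 at 7.06 and 8.68 CPM against 10.6 and 10.3 CPM (adjusted p with 7 libraries 0.00632 and 0.133).

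In the fibroblast growth factor family the carrier FGFBP1, which releases the growth factor from matrix, was at 84.1 and 69.7 CPM with pCDH-empty and 54.1 and 41.7 CPM with pCDH-HOTAIR, 1.61-fold lower (limma adjusted p = 0.231 with 8 and 0.0362 with 7 libraries), and the receptor FGFR1 at 13.02 and 12.9 CPM against 18.1 and 17.6 CPM (log2 fold change 0.46 ± 0.097; 0.247 and 0.0328). Carrier and receptor thus lay on opposite sides. Over all genes, 4.41% were higher and 2.88% lower at an unadjusted p under 0.05. Of 14 EGF family genes 3 were higher and 3 lower by that measure, among them the ligands EPGN, at 47.2 and 46.6 CPM against 34.6 and 38.8 CPM, and HBEGF, at 8.79 and 9.47 CPM against 10.7 and 11.3 CPM. Of 41 TGF-beta and BMP genes 6 were higher and 0 lower, with ID3, a target of BMP signals, at 153 and 128 CPM against 187 and 163 CPM and the ligand TGFB1 at 15.5 and 16.8 CPM against 20.6 and 19.6 CPM, and 0 passed the adjusted threshold with 7 libraries. Of 23 Notch genes 3 were higher and 1 lower, with the ligand JAG1 at 59.2 and 66.2 CPM against 72.9 and 78.01 CPM. Of 30 Wnt genes 0 were higher and 1, TCF7, was lower. Of 27 genes of YAP and TEAD with their targets 4 were higher, AXL and CCN1 among them, and 1 lower.

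Of 33 cytokine and NF-kappaB genes in the table, 5 were higher and 1 lower at an unadjusted p under 0.05, beside 4.41% and 2.88% of all genes, with a median of 0.06. The inflammatory cytokine IL1A was at 41.2 and 41.2 CPM against 57.1 and 60.3 CPM (log2 fold change 0.51 ± 0.11; limma adjusted p = 0.247 with 8 and 0.0365 with 7 libraries) and IL1B at 19.5 and 16.7 CPM against 27.9 and 28.6 CPM (0.0705 with 7). The death ligand TNFSF10 (TRAIL), which interferon also induces, was the lower one, at 15.01 and 15.8 CPM against 10.8 and 11.2 CPM (0.321 and 0.0266). With 7 libraries 1 gene of the list was higher and 2 were lower at an adjusted p under 0.05, beside 0.951% and 0.733% of all genes. The second lower one was BIRC3 (log2 fold change -0.37, adjusted p = 0.0362). Of 26 AP1 and ERK feedback genes 3 were higher and 1 lower, with JUNB at 115 and 114 CPM against 141 and 140.2 CPM (0.0132 with 7 libraries).

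Cell cycle genes were slightly lower. Of 51 genes of the cell cycle and DNA replication, all in the table, 8 were lower and 0 higher at an unadjusted p under 0.05 (all genes: 2.88% and 4.41%). In both libraries 32 lay below and 1 above (all genes: 24.8% and 22.5%), and the median was -0.10. PCNA, the sliding clamp of DNA polymerase, was at 174 and 170.2 CPM with pCDH-empty and 143 and 135 CPM with pCDH-HOTAIR (log2 fold change -0.31 ± 0.069; limma adjusted p = 0.305 and 0.0152). The helicase subunit MCM3 was at 182 and 173 CPM against 158 and 154 CPM and the factor E2F1 at 34.3 and 32.4 CPM against 28.5 and 28.3 CPM, and neither passed (0.0507 and 0.0852 with 7 libraries). Of 62 replication-dependent histone genes 53 lay below and 3 above in both libraries (all genes: 24.8% and 22.5%), with a median of -0.15. With 8 libraries, however, 1 was lower and 0 higher at an unadjusted p under 0.05. With 7 libraries 7 were lower at an adjusted p under 0.05, beside 0.733% of all genes. These histone messages share sequence between copies and lack a poly(A) tail.

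Further groups are given by their counts, beside 4.41% higher and 2.88% lower among all genes at an unadjusted p under 0.05. Of 84 cytoplasmic ribosomal proteins 0 passed an unadjusted p of 0.05, although 49 lay above and 4 below in both libraries (all genes: 22.5% and 24.8%), with a median of 0.05. Of 78 respiratory chain subunits 1, CYC1, was lower. Of 31 p53 targets 2 were higher and 1 lower, and of 35 genes of the unfolded protein and amino acid stress responses 1, the HIF target VLDLR, was higher. Of 26 NRF2 targets 4 were higher and 0 lower, led by the ferritin chains FTH1, at 2912 and 3059 CPM against 3899 and 3734 CPM, and FTL, at 148 and 147 CPM against 184 and 177 CPM (limma adjusted p with 7 libraries 0.01 and 0.0129). Ferritin stores iron, and both chains lay under the fold threshold. Of 21 subunits of PRC2, LSD1 and their cofactors 2, PHF21A and RCOR2, were higher at an unadjusted p under 0.05 and 0 lower. The methyltransferase EZH2 was at 30.98 and 27.8 CPM against 26.8 and 25.8 CPM (adjusted p = 0.762). Of 18 HOX genes in the table, 0 were higher and 1, HOXA7, was lower, at 1.25 and 1.05 CPM against 0.878 and 0.55 CPM (0.581). Of 32 epidermal differentiation genes 2 were higher and 3 lower. Of 22 microRNA host and precursor transcripts 3 were higher and 0 lower, among them MIR205HG, at 16.97 and 14.4 CPM against 22.4 and 22.7 CPM (0.0266 with 7 libraries).

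Some genes outside these groups were among the largest differences. FAT2, an atypical cadherin (chr5:150883653-150970892, GRCh37, minus strand), was at 1.73 and 2.22 CPM with pCDH-empty and 4.75 and 4.404 CPM with pCDH-HOTAIR (log2 fold change 1.19 ± 0.13; limma adjusted p = 0.0533 with 8 and 0.00632 with 7 libraries). HSD17B2, which inactivates estradiol and testosterone, was at 2.28 and 1.73 CPM against 5.11 and 5.05 CPM (1.33 ± 0.26; 0.225 and 0.0294). MAN1A1, a mannosidase of the Golgi, was at 3.24 and 3.68 CPM against 6.35 and 7.86 CPM, and the microtubule-binding gene MAPRE2 at 0.962 and 0.752 CPM against 1.76 and 2.15 CPM. All 4 passed both thresholds with 7 libraries and 0 with 8. The long non-coding RNA MALAT1, which overlaps its antisense transcript TALAM1, was at 706 and 585 CPM against 981 and 1065 CPM and passed with neither (0.434 and 0.0536). The protease CTSC and VASN, which binds TGF-beta, were higher by 0.48 ± 0.061 and 0.52 ± 0.078, under the fold threshold (0.00252 and 0.0101 with 7 libraries).

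On the lower side, the secreted chaperone CLU (clusterin) was at 17.5 and 20.1 CPM with pCDH-empty and 7.59 and 10.1 CPM with pCDH-HOTAIR, 2.13-fold lower (limma adjusted p = 0.1 with 8 and 0.0113 with 7 libraries). The non-coding transcript OLMALINC, which lies next to SCD on chromosome 10 (chr10:102132856-102213800, GRCh37, plus strand), was at 2.66 and 2.14 CPM against 0.826 and 0.901 CPM, 2.63-fold lower (0.0879 and 0.0115). The neighbours SCD and OLMALINC were thus both lower. VIPR1, a receptor for vasoactive intestinal peptide, was at 1.38 and 1.35 CPM against 0.723 and 0.701 CPM (0.166 and 0.0435), and the zinc finger gene ZNF711 at 0.417 and 0.413 CPM against 0.103 and 0.15 CPM, which rests on 13 and 11 reads against 2 and 3. GLUL, glutamine synthetase, was at 550.1 and 534 CPM against 429 and 383 CPM, with a smaller fold and a tight spread (-0.42 ± 0.069; 0.155 and 0.0113), and the LIM protein CRIP2 at 19.6 and 20.8 CPM against 13.99 and 13.8 CPM (-0.53 ± 0.091; 0.166 and 0.00632).

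The effect of HOTAIR in MCF10A was set against that in DCIS.COM by testing the difference of the 2 log2 fold changes. It passed an adjusted p of 0.05 in 6 genes, HOTAIR, TRIM22, COL17A1, GLUL, SAA2 and TCN1 (0.0436% of 13771), and, without DCIS.COM pCDH-empty 1, in 89 (0.646%). HOTAIR differed itself, since DCIS.COM pCDH-empty already held 3.96 and 5.22 CPM and DCIS.COM pCDH-HOTAIR 202 and 190.3 CPM, a log2 fold change of 5.41. GLUL was lower with HOTAIR in MCF10A and higher in DCIS.COM (114 and 111 CPM against 172 and 173 CPM there; difference -1.04 ± 0.098; limma adjusted p = 0.0208). The hypoxia genes CA9, ANGPTL4 and PFKFB3 had log2 fold changes of 0.24, -0.07 and 0.03 in DCIS.COM, and their difference from MCF10A passed with 7 libraries but not with 8 (adjusted p = 0.0128, 0.0185 and 0.0443 with 7; 0.0857, 0.119 and 0.192 with 8). As a list, the HIF targets outside glycolysis had a median of 0.25 in MCF10A and 0.30 in DCIS.COM (0.17 without DCIS.COM pCDH-empty 1), and those of glycolysis 0.16 and -0.01 (0.06). For NDRG1 the lines did not differ by this test, at 0.61 in DCIS.COM and a difference of 0.00 ± 0.086 (adjusted p = 0.99).

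Of the genes lower in MCF10A, CLU had a log2 fold change of 0.30 in DCIS.COM and differed between the lines with 7 libraries (limma adjusted p = 0.0323; 0.119 with 8). OAS2 was at 0.765 and 0.933 CPM against 2.31 and 2.15 CPM in DCIS.COM, the opposite side from MCF10A, without passing (0.152 and 0.0531), and IFIT3, at 6.15 and 6.45 CPM against 9.37 and 9.39 CPM, passed with 7 libraries (0.036). The interferon-stimulated list had a median of -0.25 in MCF10A and 0.15 in DCIS.COM, or 0.11 without DCIS.COM pCDH-empty 1. TNFSF10 was higher in DCIS.COM, at 7.42 and 9.18 CPM against 15.1 and 15.4 CPM, and its difference passed with 7 libraries (0.0624 and 0.00859). The sterol list had a median of -0.21 in MCF10A and -0.02 in DCIS.COM, where SCD was at 2119.6 and 2136 CPM against 2019.8 and 2035 CPM (difference -0.44 ± 0.11; 0.307 and 0.068). KRT83 was lower in DCIS.COM as well, at 1.43 and 1.57 CPM against 0.76 and 0.894 CPM (0.459 for the difference), and FAT2 was not higher there, at 80.4 and 76.8 CPM against 73.8 and 66.9 CPM (0.0857 and 0.0312).

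**Figure D4:**
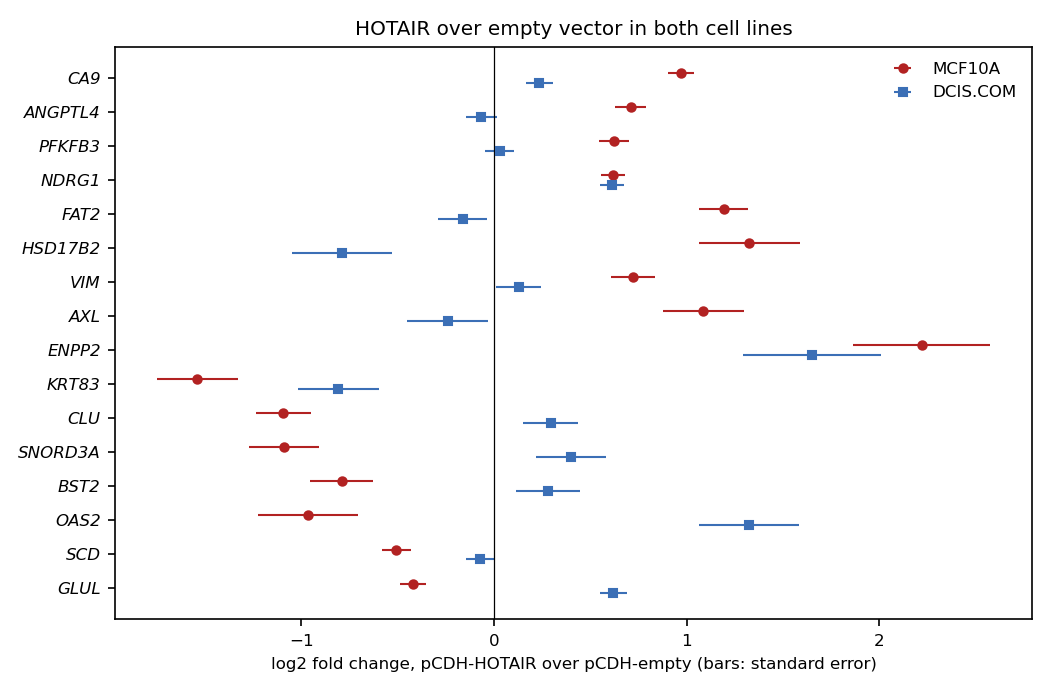
Log2 fold change (pCDH-HOTAIR over pCDH-empty) with its standard error for 16 genes in MCF10A (red circles) and DCIS.COM (blue squares), from the fit on all 8 libraries. NDRG1 lies at 0.62 in MCF10A and 0.61 in DCIS.COM, whereas GLUL lies at -0.42 and 0.62, and OAS2 at -0.97 and 1.32.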

How the data were processed

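The authors prepared ScriptSeq libraries, sequenced them as paired reads, aligned them with Rsubread to hg19 and counted them over genes with featureCounts; the submitters' processing notes also name edgeR. They deposited 1 table of log2 CPM (log2 of counts scaled to a library size) for 13771 genes in 8 libraries, after a filter on genes above 0.5 CPM in at least 2 libraries and with a small prior (0.0717 CPM). That size was not the plain total of assigned reads, since CPM summed to between 984550 and 1014900 in the MCF10A libraries. The strand setting of the counting is not given in the sources used here, so overlapping and near-identical genes are uncertain. Multiples of 1 read gave back whole reads for every value (tolerance 0.05 reads), from which depth was read.

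Here limma 3.58.1 (R 4.3.3, Python 3.11.15) was fitted with a mean-variance trend to the deposited log2 values of all 8 libraries as 4 group means, with Benjamini-Hochberg adjustment over all genes; a gene was called at an adjusted p under 0.05 and a fold of at least 1.5. A fold change is therefore on the log2(CPM + prior) scale, which understates low genes. All tests are two-sided. Positions were matched for 13010 genes (94.5%; GENCODE lifted to GRCh37). Scripts were tested on simulated data.

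Named genes were HOTAIR, called genes, genes of the paper's text, the 12 with the largest change and the 12 with the smallest p in each direction (unadjusted p under 0.05, groups apart, at least 1 CPM), up to 6 members per list and regulators. Genes called only without DCIS.COM pCDH-empty 1 or in the difference between lines, and OAS2, IFIT1, ISG15, COL1A2, FASN and any further member named within a count, were chosen after their values were seen. The comparison and the gene lists were chosen with earlier results of these data known. Alternatives covered scaling, pseudocount, low values, GC content, length, depth, weights, the replicate block, and each MCF10A library or DCIS.COM pCDH-empty 1 left out. Some members of the lists are counted but not reported by name here. All sample columns were used (0 left out).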

Additional observations from a re-analysis of the deposited data

Results flagged for a closer look

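In 6 genes the effect of HOTAIR differed between MCF10A and DCIS.COM by the limma test of the difference with all 8 libraries, given here as the log2 fold change in MCF10A minus that in DCIS.COM. For HOTAIR the difference was 1.87 ± 0.18 (SE; adjusted p = 0.0208, and 8.72e-05 without DCIS.COM pCDH-empty 1), with DCIS.COM pCDH-empty at 3.96 and 5.22 CPM. For the other 5 the difference was negative, so that HOTAIR went with a lower level, or a smaller rise, in MCF10A than in DCIS.COM.

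TRIM22, an antiviral ubiquitin ligase induced by interferon, was at 86.6 and 86.8 CPM against 79.7 and 76.4 CPM in MCF10A and at 2.79 and 3.06 CPM against 6.86 and 6.97 CPM in DCIS.COM (pCDH-empty against pCDH-HOTAIR in both). The difference was -1.37 ± 0.12 (limma adjusted p = 0.0208; 0.00115 without DCIS.COM pCDH-empty 1). COL17A1, a hemidesmosome collagen, was at 1917 and 2021 CPM against 1981 and 2034 CPM in MCF10A and at 66.4 and 63.2 CPM against 127 and 123 CPM in DCIS.COM, a difference of -0.92 ± 0.089 (0.0208 and 0.00115). For GLUL the difference was -1.04 ± 0.098 (0.0208 and 0.00229). SAA2, an acute-phase protein gene with a near-identical paralog, was at 84.9 and 85.9 CPM against 89.7 and 88.9 CPM in MCF10A and at 0.865 and 0.97 CPM against 2.36 and 2.38 CPM in DCIS.COM, a difference of -1.24 ± 0.13 (0.0385 and 0.00418). TCN1, which binds vitamin B12, was at 90.8 and 85.6 CPM against 74.4 and 76.6 CPM in MCF10A and at 159 and 174 CPM against 286 and 282 CPM in DCIS.COM, a difference of -0.997 ± 0.096 (0.0208 and 0.00115). Leaving out any 1 of the 4 MCF10A libraries left 0 such genes.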

How the results depend on the processing

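The 3 calls with all 8 libraries (HOTAIR, CA9 and NDRG1) stood beside 16 calls with a correction for GC content, 53 with array weights, 5 with limma-voom on the recovered reads, 6 with a pseudocount of 1 CPM and 1 each with MCF10A libraries alone or a log2 fold change of at least 1.5. Leaving out 1 MCF10A library or DCIS.COM pCDH-empty 1 (the other 3 DCIS.COM libraries were not left out) gave 1 to 51 calls, the 51 without DCIS.COM pCDH-empty 1; array weights were 0.222 in both DCIS.COM pCDH-empty libraries and 1.32 to 2.28 in the others. Genes at an unadjusted p under 0.05 numbered 2052 with MCF10A alone, 2097 with array weights and 663 to 2532 with 1 of these 5 left out. At an adjusted p under 0.05 at any fold, 232 genes passed without DCIS.COM pCDH-empty 1, a combination chosen after seeing the data. The difference between the lines passed in 23 genes with the GC correction, 10 with a pseudocount of 1 CPM, 3 after thinning, 0 without the mean-variance trend and 0 to 89 with 1 of these 5 left out; in these limma fits with 0, 867 to 1414 genes had an unadjusted p under 0.05. The cause of these shifts was not tested.

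The replicate block left 1 call, HOTAIR, 820 genes at an unadjusted p under 0.05 and 0 genes for the difference between the lines (limma; 1286 at an unadjusted p under 0.05). No label says that a number marks a shared culture or day. The deviations of same-numbered MCF10A libraries correlated at 0.066 over all genes and 0.036 over 12222 genes with a mean of at least 2 CPM. With 1 deviation per group this cannot show whether same-numbered libraries shared a culture or day, so the pairing is unknown. Quantile normalization, median centring, a mean of at least 2 CPM, a correction for gene length and thinning gave 2 to 4 calls; HOTAIR and CA9 were called in each of these 5, NDRG1 in 2 of them and FAT2 in 3. The sign of the log2 fold change of COL17A1 in MCF10A, near 0, turned to -0.0238 with quantile normalization and -0.0101 without MCF10A pCDH-empty 1. Depth limits the low genes: 1 read stood for 0.0321 to 0.0516 CPM in the MCF10A libraries.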
